A study of Arabidopsis thaliana with 9 samples.

Results

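Root tips of wild-type Arabidopsis thaliana (Col-0) grown on low phosphate without iron were compared with root tips grown on high phosphate, to see which changes of low phosphate remain once iron is withheld. Each condition was measured in 1 RNA-seq library. The compared features were all loci with at least 20 counts in the pair of libraries together, which were 19956 of the 33602 loci in the count tables. The low-phosphate-low-iron seedlings had 5 µM phosphate, no added FeSO4 and 100 µM ferrozine, a chelator that binds iron left in the medium. The high-phosphate seedlings had 1 mM phosphate and iron. All seedlings of the series grew for 5 days after germination on agar with a diluted mineral medium and sucrose, and the 2 to 3 mm nearest the root apex were taken for polyadenylated RNA.

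The other 7 libraries of the series give the context. They are wild type on low phosphate with iron, the mutants stop1 and almt1 on low phosphate supplemented with 1 mM L-malate, the same mutants on low phosphate alone, and the same mutants on high phosphate. STOP1 is a zinc-finger transcription factor and ALMT1 a channel that releases malate from root cells. The series has 1 biological replicate per group, so no value of a pair of libraries has a replicate check. The low-phosphate-low-iron library held 37189056 gene counts and the high-phosphate library 29934243. Counts were divided by library size with edgeR's TMM factors and are given as CPM, the usual depth-scaled count. A count of 0 allows up to 0.0822 CPM in the low-phosphate-low-iron library and 0.105 CPM in the high-phosphate one, at 3 counts.

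Roots answer scarce phosphate in a pair of ways. A systemic programme, run by the transcription factor PHR1 and held back by SPX proteins that sense phosphate through inositol pyrophosphates, raises phosphate transporters, secreted phosphatases and enzymes that replace phospholipids with galactolipids and sulfolipids. A local programme in the tip depends on STOP1, on malate and on iron in the cell walls, where the ferroxidase LPR1 acts, and ends growth of the primary root. Iron deficiency has its own regulators in roots, in which the bHLH factor FIT pairs with BHLH38 and BHLH39 to raise the ferric reductase FRO2 and the iron importer IRT1.

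The tips carried the transcripts of a root apex. SMB, a root cap factor, was at 23.4 CPM in low-phosphate-low-iron tips and 9.54 CPM in high-phosphate tips, PLT1, a meristem factor, at 15.4 and 12.9 CPM, and SCR, a factor of the endodermis and stem cell niche, at 63.5 and 32.2 CPM. The library makeup differed. Reads that fell on more than 1 gene made up 2.65% of the low-phosphate-low-iron library, and 2.55% and 2.61% of the malate libraries, against 0.956% to 1.69% of the other 6 libraries. The library of wild type on low phosphate with iron had 44.9% of its reads aligned to several places, against 4.19% to 14.3% elsewhere. The withdrawal of iron and the difference in library makeup cannot be told apart in a pair of single libraries, so values in the malate libraries stand beside several results here.

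A locus was called higher or lower when its log2 ratio was at least 1 in size and its exact 95% counting interval left out equality. In low-phosphate-low-iron tips 2612 loci (13.09% of those tested) were called higher than in high-phosphate tips and 3470 (17.39%) were called lower. The lower side reached further. At least 8-fold lower were 643 loci and at least 8-fold higher 98, and the log2 ratios ran from -2.39 at the 5th percentile of loci to 1.44 at the 95th, with a median of 0.00. A fit of all 9 libraries with edgeR's quasi-likelihood test, which takes the spread of each single wild-type library from the mutant libraries, called 4534 genes higher and 4646 lower at an adjusted p under 0.05, or 43.24% of 21229 genes. Of these calls 3753 were under 2-fold, and the number called higher was 3013 without the stop1 high-phosphate library and 2986 without the almt1 high-phosphate library. It called 2289 of the 2612 higher loci and 3031 of the 3470 lower loci in the same direction. In tips taken whole, fewer cells of a type and less RNA per cell cannot be told apart.

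Most loci that low phosphate lowered in the mutants were also low in wild type without iron, while 47.1% of those it raised were called higher. The mutant pairs share no library with the wild-type pair. Of 431 loci called lower on low phosphate in both stop1 and almt1, 410 (95.1%) were called lower in low-phosphate-low-iron tips, 0 were called higher and 2 were not tested. Of 378 loci called higher in both mutants, 178 (47.1%) were called higher, 46 were called lower, 44 lay within 0.5 of 0 on the log2 scale and 41 were not tested. An untested locus had under 20 counts in the compared libraries together, so a locus that low phosphate raises is more easily lost in this way than a locus that it lowers. Over all loci tested the shares were 13.09% higher and 17.39% lower. For wild type on low phosphate with iron, which shares the high-phosphate library, 691 of 2226 higher loci (31%) and 1000 of 1770 lower loci (56.5%) had the same call without iron, and 377 and 3 were not tested. When each pair was set against loci of similar transcript length and called anew, as described further on, 535 higher and 661 lower loci were shared. These are not counts out of the 2226 and 1770. Without that setting, 334 loci higher on low phosphate with iron were called lower without iron, and 33 lower loci were called higher.

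**Figure D1:**
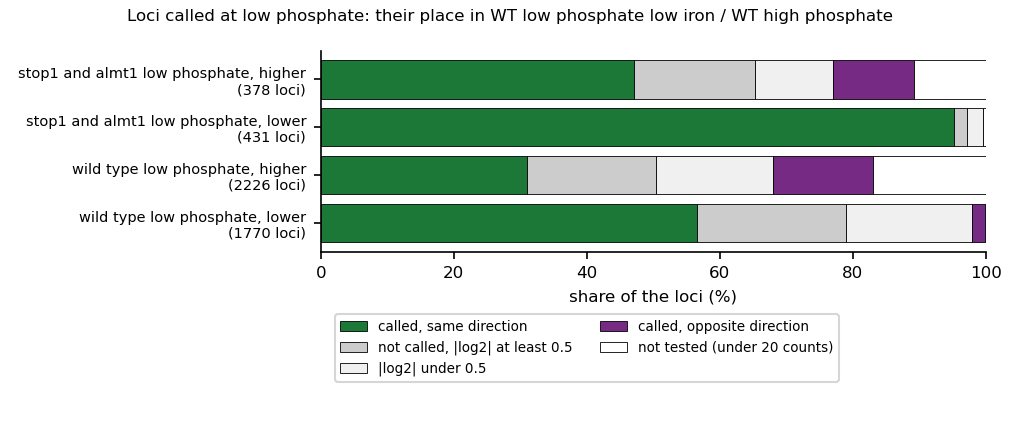
Each bar takes the loci called on low phosphate in both mutants or in wild type and splits them by their place in wild-type low-phosphate-low-iron tips against high-phosphate tips, as a percentage of all loci called on low phosphate, with untested loci in white. The share with the same call was 47.1% and 95.1% for the mutants' higher and lower loci, and 31% and 56.5% for those of wild type, which shares its high-phosphate library.

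Genes of systemic phosphate starvation stayed high without iron. Of 49 genes on 4 lists (signalling, transport, phosphatases, lipids) 30 were called higher, 3 were called lower and 6 had too few counts to be tested. Of all loci tested 13.09% were called higher and 17.39% lower. The median log2 ratio of the 43 tested was 2.26, against 0.00 for all loci, and leaves out the 6. All 30 were also called higher in wild type on low phosphate with iron, where 37 of the 49 were. Of the 32 list genes called higher in both mutants, 28 were called higher here and 2 were not tested. Each of the 30 genes had fewer CPM without iron than on low phosphate with iron, with an interval that left out equality, and the median log2 ratio of that difference was -1.33. This count was 30 with DESeq2 size factors and with total counts, and 28 with upper-quartile scaling. The malate libraries, whose labels name no withdrawal of iron, were set beside the same mutants on low phosphate alone. In stop1 the summed CPM were 746 against 2660 (signalling), 743 against 1503 (transport), 703 against 1973 (phosphatases) and 459 against 1273 (lipids). In almt1, in the same order, they were 1292 against 2514, 1191 against 1137, 1100 against 1719 and 780 against 1168.

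Among signalling genes, the non-coding RNA IPS1, which sequesters the microRNA miR399, had 105 CPM in low-phosphate-low-iron tips and 222 CPM in low-phosphate tips, against 0.419 CPM in high-phosphate tips. The log2 ratio without iron was 7.97 (95% counting interval 7.17 to 8.93), and in the edgeR fit 7.96 ± 0.88 (SE) with an adjusted p of 0.00394. Its low-phosphate values in stop1 and almt1 were 161 and 132 CPM against 0.354 and 0.25 CPM at high phosphate, so every low-phosphate library stood far above every high-phosphate library. Its relative AT4 was at 455 and 1434 CPM without and with iron on low phosphate, against 51.2 CPM on high phosphate. SPX1 reached 432 CPM without iron and 1225 CPM with iron on low phosphate, against 12.4 CPM on high phosphate, a log2 ratio without iron of 5.12 (4.97 to 5.28; edgeR adjusted p 0.00279). SPX3 reached 9.94 CPM without iron, against 0.524 CPM on high phosphate, and stood at 290 CPM on low phosphate with iron. SPX3 was called higher at a log2 ratio of 4.25, while the ratio with iron was 9.11. SPX2, at 81 CPM against 35.9 CPM, and PHF1, which helps phosphate transporters leave the endoplasmic reticulum, at 169 CPM against 45.6 CPM, were called higher too.

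Parts of the machinery that restrains phosphate uptake were lower. PHO2, a ubiquitin-conjugating enzyme that removes phosphate transporters, had 69.9 CPM in low-phosphate-low-iron tips and 166 CPM in high-phosphate tips, a log2 ratio of -1.25 (-1.32 to -1.18; edgeR adjusted p 0.00797). The ubiquitin ligase NLA had 7.48 CPM against 25.8 CPM, with a log2 ratio of -1.79, and low-phosphate libraries with iron held 8.02 to 11.1 CPM. PHL1, a relative of PHR1, was at 11.6 CPM against 30.9 CPM, and at 30.2 CPM in wild type on low phosphate with iron. PHR1 itself was at 51.3 CPM against 66.5 CPM, and SPX4 at 9.15 CPM against 8.42 CPM, and neither was called. The signalling list held 3 lower calls here, but 1 each in wild type, stop1 and almt1 on low phosphate with iron. In the malate pairs it held 3 lower calls in stop1 and 1 in almt1.

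Phosphate transporters were called higher in 8 of 10 tested members (80%), beside 13.09% of all loci. PHT1;2, a high-affinity importer at the plasma membrane, had 149 CPM without iron and 158 CPM with iron on low phosphate, against 0.175 CPM on high phosphate, a log2 ratio without iron of 9.74 (8.52 to 11.36; edgeR adjusted p 0.00087). In this importer the values with and without iron nearly coincided, and both mutants stayed below them on low phosphate, at 40 and 55.8 CPM. PHT1;1, PHT1;2 and PHT1;3 lie next to one another and are similar in sequence, so reads between them may be split uncertainly. PHT1;4 was at 359 CPM against 43.8 CPM and PHT1;1 at 362 CPM against 130 CPM. PHT1;7 and PHT1;8 had 0 counts in high-phosphate tips, and stood at 1.29 and 2.44 CPM without iron, at least 3.62 and 4.54 higher on the log2 scale. On low phosphate with iron they reached 9.99 and 17.7 CPM. The glycerol-3-phosphate transporter G3PP1 had 221 CPM against 8.32 CPM. PHO1, which loads phosphate into the xylem, and PHO1;H1 were not called, at 120 CPM against 199 CPM and 33.2 CPM against 45.9 CPM.

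Phosphatases and nucleases followed, with 7 of 10 (70%) called higher, beside 13.09% of all loci. PECP1 (AT1G17710), which frees phosphate from phosphocholine and phosphoethanolamine, had 137 CPM without iron and 996 CPM with iron on low phosphate, against 0.454 CPM on high phosphate, with a log2 ratio without iron of 8.23 (7.46 to 9.14; edgeR adjusted p 0.00436). PS2, a related phosphatase, had 119 and 588 CPM without and with iron, against 5.98 CPM. The acid phosphatase PAP17 was at 186 CPM against 9.75 CPM, PAP12 at 242 CPM against 74.5 CPM, and the ribonuclease RNS1 at 28.3 CPM against 5.91 CPM. PAP10, the phosphatase on the root surface, was at 65 CPM against 42.1 CPM and was not called, whereas it stood at 143 CPM in wild type and 138 and 116 CPM in stop1 and almt1 on low phosphate with iron.

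Enzymes that exchange membrane lipids were called higher in 9 of 11 tested members (81.8%), beside 13.09% of all loci. SQD2, which makes sulfolipid, had 407 CPM against 48.2 CPM, a log2 ratio of 3.08 (3.00 to 3.16; edgeR adjusted p 0.00308), and SQD1, of the same route, 113 CPM against 25.8 CPM. The galactolipid synthases MGD3 and MGD2 had 55.2 CPM against 4.05 CPM and 45 CPM against 7.37 CPM, and DGD2 had 50.7 CPM against 17 CPM. The phospholipase NPC4 had 37.9 CPM against 1.68 CPM, with 280 CPM on low phosphate with iron. GDPD1, a glycerophosphodiester phosphodiesterase, had 121 CPM against 16.3 CPM. DGD1, at 25.2 CPM against 14.3 CPM, and PAH2, at 95.7 CPM against 66.5 CPM, were not called.

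**Figure D2:**
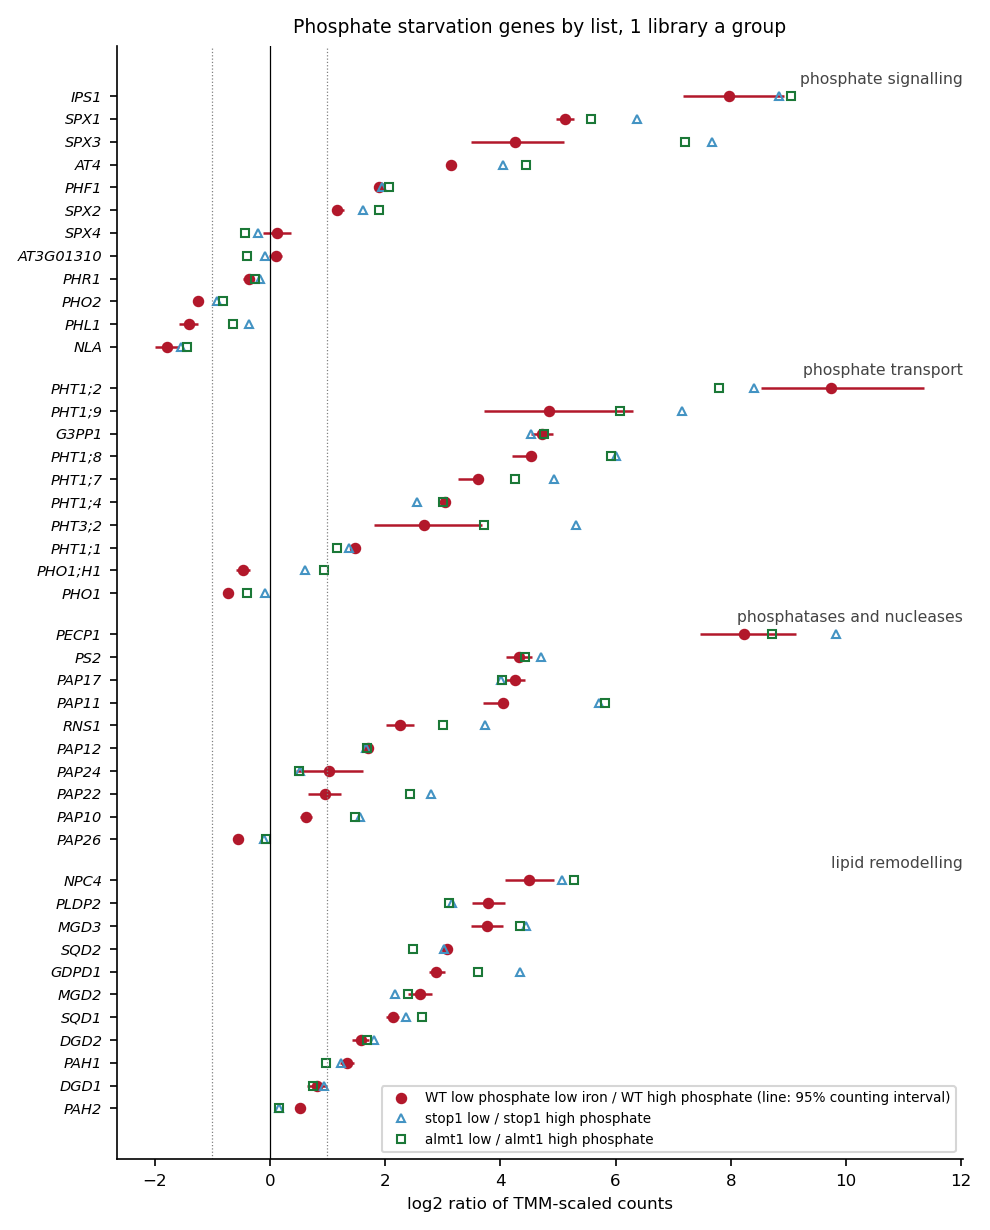
Each row is a gene of the 4 phosphate lists and the horizontal axis is the log2 ratio of TMM-scaled counts; red circles with 95% counting intervals are wild-type low-phosphate-low-iron over high-phosphate tips, and open symbols the mutants' low over high phosphate, from other libraries. Dotted lines mark the 2-fold limit; IPS1 (7.97), PHT1;2 (9.74) and PECP1 (8.23) lie far right, and PHO2, PHL1 and NLA lie left of the limit without iron.

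The PHR1 binding motif P1BS (GNATATNC, which reads the same on both strands) was searched in the 300 bases before each annotated gene start. It was present in 52 of 178 promoters (29.2%) of loci called higher here and in both mutants on low phosphate, against 6.56% of the promoters of all loci tested and 6.29% of all 32834 promoters read. Among all loci called higher it was in 7.83%, and among all called lower in 6.39%. In the phosphate lists 12 of 30 genes called higher held it, and 1 of the 13 others tested. The G-box (CACGTG, also the same on both strands), searched for comparison, was in 6.18% of the shared higher promoters and 7.83% of those of all loci tested. A match is a description of the letters, not a shown binding site. Promoters with a match are shown for 4 of the strongly raised genes, from the RefSeq assembly TAIR10.1, 5′ to 3′ on the strand of the gene with the motif in capitals.
SPX3, chr2:18606110-18606409, + strand: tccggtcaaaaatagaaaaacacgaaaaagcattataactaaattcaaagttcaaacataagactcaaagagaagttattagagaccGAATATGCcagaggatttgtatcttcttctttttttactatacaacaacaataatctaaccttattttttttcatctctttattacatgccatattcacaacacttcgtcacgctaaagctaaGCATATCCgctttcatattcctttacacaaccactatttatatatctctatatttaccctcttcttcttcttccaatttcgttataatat
PHT1;2, chr5:17415398-17415697, + strand: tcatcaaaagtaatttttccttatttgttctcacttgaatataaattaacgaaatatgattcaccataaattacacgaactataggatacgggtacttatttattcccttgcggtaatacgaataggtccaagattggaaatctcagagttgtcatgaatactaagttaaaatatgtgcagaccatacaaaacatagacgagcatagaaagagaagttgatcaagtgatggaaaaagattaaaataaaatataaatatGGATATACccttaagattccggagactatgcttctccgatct
GDPD1, chr3:350011-350310, - strand: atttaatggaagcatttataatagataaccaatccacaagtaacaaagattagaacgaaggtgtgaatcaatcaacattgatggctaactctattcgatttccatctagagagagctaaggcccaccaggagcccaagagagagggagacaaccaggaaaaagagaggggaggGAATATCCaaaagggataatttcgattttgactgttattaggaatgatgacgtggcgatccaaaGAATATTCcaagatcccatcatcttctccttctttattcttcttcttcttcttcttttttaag
PS2, chr1:27466349-27466648, - strand: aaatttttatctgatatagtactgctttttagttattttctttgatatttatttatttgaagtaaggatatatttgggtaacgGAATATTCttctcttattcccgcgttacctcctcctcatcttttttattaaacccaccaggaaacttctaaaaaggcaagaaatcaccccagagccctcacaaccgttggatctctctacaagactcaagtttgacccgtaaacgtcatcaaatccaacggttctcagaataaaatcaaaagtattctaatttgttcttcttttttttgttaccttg
In SPX3 the matches begin 213 and 90 bases before the gene start, in GDPD1 127 and 63, in PHT1;2 42 and in PS2 217. The windows of 3 genes that were also raised, IPS1, SPX1 and PECP1, held no match in these 300 bases.

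Other loci at the top of the comparison have little annotation. AT2G04460, listed as an uncharacterized protein, had 122 CPM without iron and 257 CPM with iron on low phosphate, against 0 counts on high phosphate, so it was at least 10.18 higher on the log2 scale. AT1G08165 had 8.08 CPM against 0.0349 CPM, a log2 ratio of 7.85 (5.36 to 13.16). AT5G09570, a Cox19-like protein, had 5.59 CPM against 0.0349 CPM, a log2 ratio of 7.32 (4.83 to 12.63). The high-phosphate values of AT1G08165 and AT5G09570 rest on 1 count each, so the intervals are wide. All 3 were called higher in both mutants on low phosphate as well.

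Part of the wild-type response to low phosphate was not called without iron. Among genes called higher in wild type on low phosphate with iron, BCB, a blue copper protein of wounding and stress, had 0.548 CPM without iron and 74 CPM with iron on low phosphate, against 0.454 CPM on high phosphate. CYP71A12, a cytochrome P450 of the camalexin route, had 0.712 and 46.2 CPM against 0.559 CPM. In both genes wild-type tips without iron stood beside the high-phosphate tips, and CYP71A12 also reached 40.4 CPM in stop1 on low phosphate. The touch-induced calmodulin-like gene TCH3 had 11 and 403 CPM against 16.6 CPM, and in the malate libraries of stop1 and almt1 it stood at 91 and 150 CPM. Genes that low phosphate with iron lowered included some that were not called without iron. XTH17, an enzyme that cuts and rejoins xyloglucan in growing walls, had 238 CPM without iron and 21.4 CPM with iron on low phosphate, against 242 CPM on high phosphate, and PME2, a pectin methylesterase, had 137 and 26.9 CPM against 152 CPM. BR6OX1, an enzyme of brassinosteroid synthesis, had 14.6 and 0.78 CPM against 11.8 CPM, and CER4, a fatty acyl reductase, 61.8 and 4.68 CPM against 45.3 CPM. In the malate libraries XTH17 was at 57.4 and 86.3 CPM, below the wild-type tips without iron. Both wild-type pairs in this paragraph share the high-phosphate library.

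Genes of iron deficiency were low, not high, in the library labelled low iron. Of 46 tested genes for iron regulators, iron uptake and coumarins, 18 were called lower and 4 higher, with a median log2 ratio of -0.60. Among the iron regulators 7 of 15 (46.7%) were lower and 0 higher. Among uptake and movement genes 10 of 22 (45.5%) were lower and 1 (4.55%) higher. All loci tested gave 17.39% lower and 13.09% higher. IRT1, the iron importer of the root surface, had 0.466 CPM without iron and 33.6 CPM with iron on low phosphate, against 11.1 CPM on high phosphate, a log2 ratio without iron of -4.57 (-5.37 to -3.87; edgeR -4.56 ± 0.47, SE, adjusted p 0.00276). It stood below every other library, which held 1.53 to 33.6 CPM. FRO2, the ferric reductase, had 5.48 CPM against 12.8 CPM, and 25.9 CPM on low phosphate with iron. BHLH38 and BHLH39 had 0.164 and 0.602 CPM against 4.09 and 12.5 CPM, and FIT, their partner, 20.6 CPM against 73.7 CPM. FIT was at 31.2 CPM in wild type, and 31.3 and 31.9 CPM in the mutants, on low phosphate with iron.

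The same direction was seen in genes of iron chelation and transport. NAS1, a nicotianamine synthase, had 0.192 CPM without iron and 31.3 CPM with iron on low phosphate, against 25.5 CPM on high phosphate, a log2 ratio without iron of -7.05 (-8.37 to -6.00; edgeR adjusted p 0.00116). The ferroportin FPN1 had 0.356 CPM against 5.03 CPM, the zinc transporter ZIF1 27 CPM against 58 CPM, the metal importer NRAMP1 77 CPM against 219 CPM, and the metal transporter OPT3 5.48 CPM against 25.2 CPM. CYP82C4, an enzyme of coumarin synthesis, had 0 counts without iron and 7.09 CPM on high phosphate, a log2 ratio of -6.43 at the floor of 3 counts, and so at least that much lower. AHA7, a plasma-membrane proton pump, went the other way with 360 CPM against 96.5 CPM (log2 ratio 1.90, edgeR adjusted p 0.00323), and was also called higher on low phosphate with iron, at 234 CPM. PDR9, which exports coumarins, and the phenylpropanoid ligases 4CL1 and 4CL2 were higher too, PDR9 at 588 CPM against 263 CPM, a call that PDR9 lost against loci of similar length. F6'H1, the entry enzyme of coumarins, was at 191 CPM against 177 CPM and was not called. In the mutants on low phosphate with iron IRT1 was also low, at 1.53 CPM in stop1 and 2.06 CPM in almt1, against 6.72 and 16.6 CPM on high phosphate, and BHLH38, BHLH39, NAS1, FPN1 and FPN2 were called lower in both. The uptake list held 6 and 7 lower calls there and the regulators 4 and 3. In the malate libraries, whose labels name no withdrawal of iron, IRT1 had 4.14 and 5.2 CPM, and the uptake list held 8 and 6 lower calls of its own in stop1 and almt1. No measurement of tissue iron was used here.

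Of 12 listed iron storage genes 5 were called higher on low phosphate with iron, 3 of them among the 8 tested without iron. Of these 8 genes 0 were called higher without iron, beside 13.09% of all loci. Against loci of similar length 2 of the 8 were called higher, FER3 at 164 CPM against 84.7 CPM and VTL2 at 5.4 CPM against 3.56 CPM. FER1, a ferritin, had 145 CPM without iron and 299 CPM with iron on low phosphate, against 93.1 CPM on high phosphate, a log2 ratio of 0.64 without iron and 1.68 with it. In the mutants on low phosphate FER1 was at 442 and 388 CPM, above the 119 and 136 CPM of their high-phosphate tips. The vacuolar iron transporter-like gene VTL1 had 3.97 and 24.2 CPM without and with iron, against 4.93 CPM. VTL5 was the 1 storage gene called lower (12.5% of the 8, near the 17.39% of all loci). It was at 13.4 CPM against 87.1 CPM, with 151 CPM on low phosphate with iron. FER1 and VTL1 without iron were near the malate libraries, where FER1 was at 145 and 188 CPM and VTL1 at 2.92 and 6.08 CPM. Of 8 tested zinc-deficiency genes 0 were called in either direction by the pair rule, which called 30.48% of all loci.

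**Figure D3:**
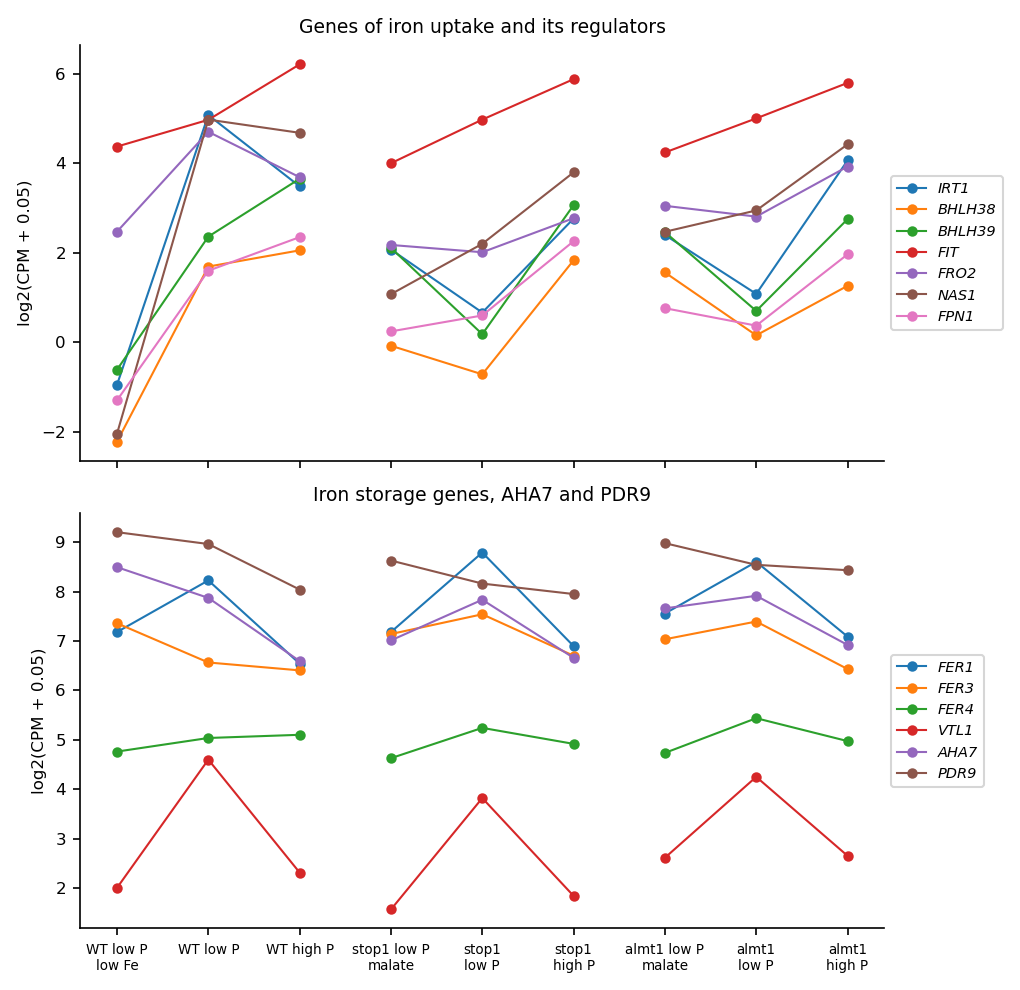
CPM as log2(CPM + 0.05) for genes of iron uptake and their regulators (top) and iron storage genes with AHA7 and PDR9 (bottom), in 9 libraries in 3 genotype blocks, each with its treated library left of its high-phosphate library. IRT1, BHLH38, BHLH39, NAS1 and FPN1 were lowest in the wild-type low-phosphate-low-iron library, and FER1 and VTL1 were highest on low phosphate with iron.

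Genes of the local response of the tip differed among themselves. ALMT1 had 47 CPM without iron and 134 CPM with iron on low phosphate, against 57.2 CPM on high phosphate, and STOP1 114 and 149 CPM against 158 CPM. Neither was called without iron, at log2 ratios of -0.28 and -0.47 (edgeR adjusted p 0.23 and 0.0874). Of 15 tested genes of the STOP1 and malate list 0 were higher and 4 (26.7%) lower, beside 13.09% and 17.39% of all loci. On low phosphate with iron 7 of the same 15 were higher, where 11.09% of all loci were. The glutamate dehydrogenase gene GDH1 had 61.9 CPM against 187 CPM, while GDH1 was at 186 CPM on low phosphate with iron. The nitrate transceptor NRT1.1 had 139 CPM against 518 CPM, and was called lower on low phosphate with iron too, at 223 CPM. Of 10 genes of the tip list 4 (40%) were higher and 2 (20%) lower, and 5 were higher on low phosphate with iron. LPR1 had 7.64 CPM against 2.87 CPM and the P5-type ATPase PDR2 167 CPM against 73.9 CPM. The callose synthases CALS3 and CALS12 had 144 CPM against 56.9 CPM and 81.4 CPM against 27.6 CPM. On low phosphate with iron LPR1 was at 9.6 CPM and CALS12 at 61.1 CPM, and both were called higher there too, while PDR2 and CALS3, at 107 and 102 CPM, were not called. The small peptide gene CLE14 and the transporter gene STAR1 were lower, CLE14 at 2.63 CPM against 8.11 CPM. When each log2 ratio was set against loci of similar transcript length, 1 of the 4 higher genes of the list, LPR1, kept its call, and CLE14 lost its lower call.

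Genes of the stem cell niche and of the cell cycle were mostly not called by the pair rule. WOX5, which marks the quiescent centre, had 0.438 CPM without iron and 7.07 CPM with iron on low phosphate, against 1.78 CPM on high phosphate, a log2 ratio of -2.02 without iron and 1.99 with it, and BRAVO, another gene of the quiescent centre, had 5.04 and 28.5 CPM against 12.5 CPM. Of 14 niche genes 1 (7.14%) was higher and 2 (14.3%) lower. Of 24 cell cycle genes 2 (8.33%) were higher and 0 lower, with a median log2 ratio of 0.02. These shares lay below the 13.09% higher and 17.39% lower of all loci. The edgeR fit has no fold limit and called 43.24% of all genes it tested. It called 8 of 25 cell cycle genes higher and 5 lower, and 5 of 14 niche genes higher and 2 lower. By the pair rule the 2 cyclins called higher were CYCA2;3, at 23.5 CPM against 10 CPM, and CYCB1;2, at 42.6 CPM against 19.8 CPM. MCM5, a part of the replication helicase, was at 39.8 CPM against 20 CPM and not called by that rule. The cap genes SMB and FEZ were called higher by it, with FEZ at 2.49 CPM against 0.979 CPM. BFN1, a nuclease of dying cap cells, was called lower by it, at 10.7 CPM against 32.4 CPM.

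Root hair genes were called higher in 6 of 14 tested members (42.9%), with 0 lower, beside 13.09% and 17.39% of all loci. The extensin-like proteins LRX1 and LRX2 had 182 and 60.9 CPM against 24.8 and 9.05 CPM, log2 ratios of 2.87 and 2.75 (edgeR adjusted p 0.00296 and 0.00173). PRP3, a proline-rich wall protein of hairs, had 416 CPM against 99 CPM, and COBL9, needed for hair tips, 138 CPM against 45.7 CPM. RHD6, which starts hair growth, had 48.1 CPM against 19 CPM, while RSL4 and EXPA7, also of hairs, were near equal at 40.6 against 42 CPM and 142 against 141 CPM. LRX1 was at 196 CPM on low phosphate with iron and at 90.4 and 137 CPM in the malate libraries, above the 43.4 and 79 CPM of the same mutants on low phosphate alone. The 6th gene called was RSL1, a relative of RHD6, at 5.29 CPM against 2.31 CPM. The NADPH oxidase RBOHC of hairs, on the oxidase list, was also called higher, at 208 CPM against 85.9 CPM, but not against loci of similar length.

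In cell walls EXPA1, an expansin, had 33.9 CPM without iron and 103 CPM with iron on low phosphate, against 6.82 CPM on high phosphate. The cellulose synthase genes CESA1 and CESA6 of primary walls had 798 and 562 CPM against 394 and 237 CPM. The extension list held 3 higher (23.1%) and 1 lower call (7.69%) of 13, beside 13.09% and 17.39% of all loci. Against loci of similar length the list held 4 higher and 0 lower calls, with EXPA1, XTH19, XTH20 and EXPA17 higher and without CESA1, CESA6 and XTH21. Peroxidases and oxidases held 3 higher and 3 lower calls of 13 (23.1% each), beside the same shares of all loci. PER37 had 70.6 CPM without iron and 303 CPM with iron on low phosphate, against 31.3 CPM, and PER71 had 156 and 131 CPM against 433 CPM. In endodermis and xylem 3 of 16 (18.8%) were higher and 3 lower, near the 13.09% and 17.39% of all loci. Against loci of similar length 5 were higher, CASP1 to CASP5, and 2 lower. CASP4 and CASP2, which scaffold the Casparian strip, had 83.3 and 135 CPM against 30.1 and 63.7 CPM. The edgeR adjusted p was 0.0235 for CASP4 and 0.0991 for CASP2. The xylem protease XCP1 had 95.9 CPM against 244 CPM.

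Suberin genes were called lower, unlike the CASP genes. This list of 11 was added after the values were seen, and so is described only. GPAT5, of the endodermis list and a suberin acyltransferase, had 0.548 CPM without iron and 46.6 CPM with iron on low phosphate, against 23.5 CPM on high phosphate. CYP86A1, a fatty acid hydroxylase of suberin, had 0.164 and 165 CPM against 85.8 CPM, a log2 ratio without iron of -9.03 (-10.48 to -7.90), and ABCG6, a suberin exporter, 1.67 and 124 CPM against 43.6 CPM. Of the 11 genes 9 (81.8%) were called lower and 0 higher, beside 17.39% and 13.09% of all loci. On low phosphate with iron 8 of the 11 were higher. In the malate libraries 10 and 2 were called lower, and CYP86A1 was at 11.2 CPM in stop1 and 36.2 CPM in almt1, against 154 and 75.6 CPM at high phosphate. Other loci were as low without iron. The glycine-rich proteins GRP9 and AT2G05510 had 0.301 and 0.548 CPM against 538 and 528 CPM, and AT5G44550 0.192 CPM against 122 CPM. On low phosphate with iron they were at 477, 556 and 118 CPM, close to high phosphate. GRP9 and AT2G05510 were called lower in both mutants on low phosphate, at 182 and 108 CPM and at 129 and 75.5 CPM.

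Carbon and glucosinolate genes were among the lowest. The dormancy-associated gene DRM2 (AT2G33830) had 0.657 CPM without iron and 49.3 CPM with iron on low phosphate, against 820 CPM on high phosphate, a log2 ratio of -10.29 (-10.93 to -9.71; edgeR adjusted p 0.000599). The sucrose exporters SWEET11 and SWEET12 had 0.192 and 0.0548 CPM against 17.9 and 34.8 CPM, and both stayed at 0.0512 to 0.0796 CPM in the malate libraries. Of 8 genes of sugar export and carbon starvation 6 (75%) were lower, beside 17.39% of all loci. All 6 tested photosynthesis genes of shoots were lower, with a summed level of 13.3 CPM against 90.2 CPM. Of 8 tested glucosinolate genes 4 (50%) were lower. On low phosphate with iron 6 of the same 8 were higher, where 11.09% of all loci were. BCAT4 had 0.192 CPM without iron and 362 CPM with iron on low phosphate, against 6.5 CPM on high phosphate, and CYP83A1 0.466 and 257 CPM against 22.1 CPM. The touch, wounding and jasmonate list still held 4 higher calls of 12 (33.3%), beside 13.09% of all loci. JAZ1 was 1 of them, at 44.7 CPM against 15.9 CPM. On low phosphate with iron the list held 9 higher calls of the same 12.

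Flavonoid and heat shock genes were higher. CHS, which makes the first flavonoid precursor, had 1039 CPM without iron and 220 CPM with iron on low phosphate, against 77.6 CPM on high phosphate, a log2 ratio of 3.74 (3.68 to 3.80; edgeR adjusted p 0.00116). CHI, F3'H and FLS1 of the same route had 86.3, 35 and 246 CPM against 7.65, 2.66 and 28.1 CPM. Of 5 tested genes of the list 4 (80%) were called higher, beside 13.09% of all loci. In the malate libraries CHS was at 1028 and 1073 CPM, CHI at 103 and 87.6 CPM and FLS1 at 224 and 228 CPM. F3'H was lower in both than without iron, with 15.7 CPM in almt1. The heat shock factor HSFA2 had 19 CPM without iron and 1.75 CPM with iron on low phosphate, against 1.08 CPM on high phosphate, and its malate values were 10 and 8.46 CPM. HSP90.1 had 92.4 CPM against 12.2 CPM and HSP101 43.2 CPM against 8.07 CPM. Of 6 listed heat shock genes 4 (66.7%) were called higher and 1 (16.7%), HSP18.2, lower, beside 13.09% and 17.39% of all loci.

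**Figure D4:**
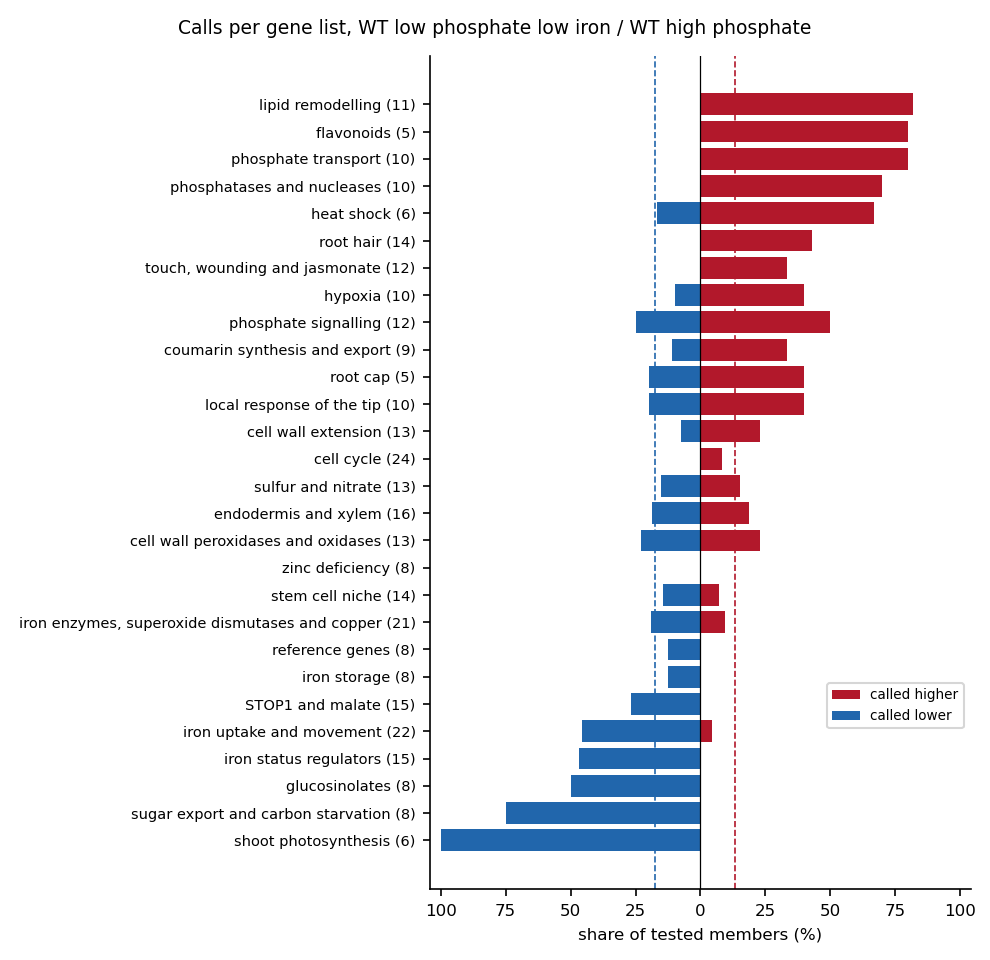
Share of the tested members of each of 28 gene lists (number tested in brackets) called higher (red, right) or lower (blue, left) in wild-type low-phosphate-low-iron over high-phosphate tips; dashed lines mark the 13.09% and 17.39% over all loci. Lists of lipid remodelling, phosphate transport and phosphatases lie right, and iron, sugar and glucosinolate lists left.

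The malate libraries shared much of the low-iron profile. Of 1006 loci called higher in both malate pairs 721 (71.7%) were higher in low-phosphate-low-iron tips and 69 were not tested, and of 1766 called lower 1502 (85.1%) were lower and 11 were not tested. Over all loci tested the shares were 13.09% higher and 17.39% lower. The malate pairs share no library with the wild-type pair. Of the 2612 higher calls without iron, 178 were also called in both mutants on low phosphate, another 613 in both malate pairs and another 327 in wild type on low phosphate, which left 1494. Of the 3470 lower calls the numbers were 410, 1169, 339 and 1552. Few of these were near 0 in wild type on low phosphate and both malate pairs at once, with 96 higher and 63 lower. Among them were WOL, a cytokinin receptor kinase, at 187 CPM against 71.2 CPM, AT3G21340, a leucine-rich repeat kinase, at 93.4 CPM against 20.3 CPM, and DLAH, an alpha/beta hydrolase, at 1.1 CPM against 6.92 CPM. WOL was not called against loci of similar length. For AT3G21340 the other 8 libraries held no value above 35.8 CPM.

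Ratios moved with transcript length. The spliced length is the longest summed exon length of a locus in TAIR10.1. In the shortest of 10 length classes of equal size (median 745 bases) the median log2 ratio was -0.66, with 6.28% called higher and 35.7% lower. In the longest class (median 3807 bases) it was 0.89, with 41.7% called higher and 2.86% lower. The median rose with each class, and loci called higher had a median length of 2426 bases and those called lower 1295 bases. The same trend was seen for the malate pairs, from -0.52 to 0.70 in stop1 and from -0.34 to 0.56 in almt1, and for wild type on low phosphate, from -0.54 to 0.53. For the mutants on low phosphate it ran from -0.16 to 0.22 in stop1, and in almt1 all classes lay within 0.11 of 0. Set against loci of similar length, a measure added after the data were seen, 2022 loci were called higher and 2870 lower. On that measure the phosphate lists held 28 higher and 6 lower calls, against 30 and 3, and the iron lists 4 and 20, against 4 and 18. The part of length in single genes was not tested.

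**Figure D5:**
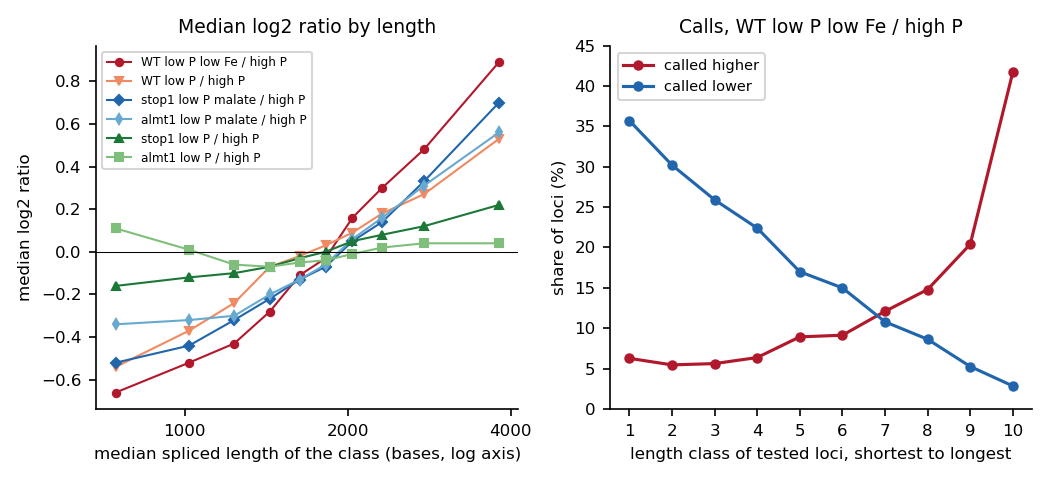
Left, the median log2 ratio in each of 10 classes of loci by spliced length (log axis) for 6 pairs of libraries, with low phosphate low iron over high phosphate in red; right, the share of loci called higher or lower in each class for the wild-type pair without iron. The median ran from -0.66 to 0.89 and the share called higher from 6.28% to 41.7%, shortest to longest.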

How the data were processed

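Per the labels, each of the 9 groups is 1 poly(A) RNA-seq library. The deposited values are raw counts of reads per locus for 33602 loci, with 5 summary lines that were left out of tests and library sizes. Per the submitters' processing notes, TopHat2, HTSeq and TAIR10 were used, with versions not given in the sources used here. The library kit kept no strand, per the labels' protocols, so reads of a locus and of its antisense partner cannot be told apart. Overlapping loci (7174) held 26.2% to 26.4% of the counts of the compared libraries. Gene counts ran from 20619740 to 37189056 per library.

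Counts were scaled with edgeR 4.0.16 TMM factors. A log2 ratio of a pair of libraries has an exact Clopper-Pearson 95% interval, and at least 20 counts in the pair were required. Intervals and the floor of 3 counts cover counting error only. The edgeR quasi-likelihood fit (R 4.3.3, limma 3.58.1) took all 9 libraries, with wild-type and mutant terms for each condition and a term for stop1 against almt1, which left 2 residual degrees of freedom. Its p-values were adjusted by Benjamini-Hochberg. They measure only how the difference between stop1 and almt1 varied between conditions, which may be technical or a difference in how the mutants respond. Each wild-type condition has its own term and 1 library, so no wild-type library adds to that spread. DESeq2 1.42.0 was an alternative. The scripts were tested on simulated data.

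The members and lists were chosen with earlier results of these data known. The 28 lists hold 362 genes, and 1 list of suberin genes and the setting against transcript length were added after the values were seen. Named genes were STOP1, ALMT1, the loci with the most extreme ratios at 5 CPM or more, those called in both mutants too or near 0 in the other pairs, and up to 4 called members per list. Other list members that are given, called or uncalled, were chosen after their values were seen. Promoters and lengths came from the TAIR10.1 annotation, in which 32835 loci were matched. The title of the stop1 malate library conflicts with its other labels, which were followed.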

Additional observations from a re-analysis of the deposited data

How the results depend on the processing

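Other scaling (DESeq2 size factors, total counts, upper quartile), a minimum of 100 counts or of 1, leaving out organelle loci and leaving out overlapping loci kept each count of calls of the pair within 1.5 times, and the scalings moved the median log2 ratio of all loci by at most 0.04. The fold limit moved them. At 1.5-fold 5208 loci were higher and 5545 lower, with 459 and 965 shared with both mutants on low phosphate and 2005 and 2359 with wild type on low phosphate. At 4-fold the numbers were 319 and 1313, 66 and 73, and 116 and 192. With each pair centred on transcript length and called anew, 535 higher and 661 lower loci were shared with wild type on low phosphate, against 691 and 1000. The edgeR fit called 2986 to 6082 genes higher when 1 mutant library was left out, with 2986 without the almt1 high-phosphate library and 3013 without the stop1 one. DESeq2 called 7235 genes in all, against 9180. Of 159 named genes 28 lost their edgeR call under at least 1 of 12 alternatives, among them SPX3, NPC4, PHT1;8, LPR1, WOX5, GDH1 and GPAT5. The cause was not tested. No paired analysis was possible because each group has 1 library.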

Other observations

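PCO1 and PCO2, oxidases of the oxygen-sensing pathway, had 6.02 and 5.07 CPM in low-phosphate-low-iron tips, against 1.33 and 1.12 CPM in high-phosphate tips. HRE1, a factor induced by low oxygen, had 2.68 CPM against 15.2 CPM. Of 10 hypoxia genes 4 (40%) were called higher and 1 (10%) lower, beside 13.09% and 17.39% of all loci. On low phosphate with iron 8 of the 10 were higher, while 3 and 6 were in the malate pairs of stop1 and almt1. PCO1 and PCO2 were called higher in each of these pairs. Of 13 sulfur and nitrate genes 2 were called higher and 2 lower (15.4% each), near the 13.09% and 17.39% of all loci. The sulfate importer SULTR1;2 had 60.9 CPM against 251 CPM and the sulfur-deficiency gene LSU1 0.657 CPM against 3.7 CPM. Its relative LSU2 was called higher by the pair rule, at 8.71 CPM against 4.3 CPM (log2 ratio 1.02), but not by the edgeR fit. On low phosphate with iron LSU1 and LSU2 were at 14.6 and 53.6 CPM. The nitrate importer NRT2.1 had 4.41 CPM against 0.524 CPM, with an edgeR adjusted p of 0.0923. FSD1, the iron superoxide dismutase, had 10.7 CPM without iron and 44.5 CPM with iron on low phosphate, against 3.49 CPM on high phosphate, with an edgeR adjusted p of 0.0836 without iron. CSD1, a copper and zinc superoxide dismutase, had 389 CPM against 975 CPM, and the catalase CAT3 had 12.2 CPM against 45.5 CPM.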
